A study of Homo sapiens with 26 samples.

Results

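The places bound by the progesterone receptor (PR) were compared between T47D cells given estradiol (E2) together with the progestin R5020 and T47D cells given R5020 alone. T47D is an established human breast cancer line, and the labels give it as positive for the estrogen receptor (ER) and PR. The list of PR sites under E2+R5020 held 11908 sites and the list under R5020 held 6358. These are 18266 of the 87206 sites in the 10 lists of the series, which cover ER, PR and sequential ER-then-PR immunoprecipitation (reChIP) in T47D cells and ER in PR-deficient T47D cells. A PR site was called kept when it overlapped a PR site of the other treatment by 1 bp or more. E2+R5020 sites without such a partner were called gained, and R5020 sites without one were called lost. The 3 words describe listing only, since a site below the caller's limit in 1 library is simply not listed there.

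PR is a steroid receptor that, on binding progesterone or a progestin such as R5020, attaches to hormone response elements in DNA and to open chromatin prepared by other factors. In breast cells the PR gene is itself a classical target of ER, which ties the presence of PR to estrogen action. ER and PR can occur at the same enhancers in ER-positive breast cancer cells. Adding E2 to R5020 therefore asks where PR is found once ER has its own ligand too.

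The E2+R5020 group was T47D cells deprived of steroids in charcoal-stripped serum and given 10 nM E2 and 10 nM R5020 for 45 min. The R5020 group was the same cells given 10 nM R5020 for 45 min. Both were precipitated with the same PR antibody, and a vehicle library was subtracted from both lists, of which the series holds 1 for PR. The other lists come from the same doses and time, and how the PR-deficient cells were made is not given in the labels. Each group is 1 library from 1 cell line, so there is no replicate error and no p-value, and treatment and library cannot be told apart. Intervals below are exact (Clopper-Pearson, 95%) and cover counting error over sites only. The lists hold no expression values, so the identity and receptor status of the cells were not checked here. Positions follow hg19, and the genes around the sites were not analysed here.

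The lists differ in more than their number of sites. Each site carries the authors' score, which moves in even steps of 2.20 under E2+R5020 and 5.90 under R5020. The lowest score listed was 7 steps under E2+R5020 and 3 steps under R5020, and the median was 8 and 4 steps. Read depth is unknown. Steps differ between lists, so they are used only to rank sites within a list. The median PR site was 292 bp long under E2+R5020 (quartiles 242 and 386) and 149 bp under R5020 (quartiles 136 and 157). The E2+R5020 sites covered 3.99 Mb and the R5020 sites 0.970 Mb.

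Most PR sites were listed under 1 of the 2 treatments. Of the 11908 E2+R5020 sites, 11109 were gained (93.3%, 92.8 to 93.7) and 799 were kept (6.71%, 6.27 to 7.17). Of the 6358 R5020 sites, 897 were kept (14.1%, 13.3 to 14.99) and 5461 were lost (85.9%, 85.0 to 86.7). The shares kept, 6.71% and 14.1%, are the background against which the shares in subsets of sites are read below. For ER, the same comparison found that 958 of 19220 sites under E2+R5020 (4.98%, 4.68 to 5.30) lay at an ER site of R5020, and that 945 of 5338 sites under R5020 (17.7%, 16.7 to 18.8) lay at one of E2+R5020. The kept shares depend on the limit set for sharing: with 50% or more of each site required to overlap, they were 1.47% of E2+R5020 and 2.75% of R5020 PR sites. The number of gained sites depends on the length of the list. With the E2+R5020 list cut by score to 6358 sites, 5724 were gained and 5631 were lost.

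The most strongly scored PR sites were shared far more often than the rest. Of the 50 highest-scoring E2+R5020 sites, 42 were kept (84.0%, 70.9 to 92.8), and of the 50 highest-scoring R5020 sites, 32 were kept (64.0%, 49.2 to 77.1). The share went down with rank in either list. It was 37.2% (32.95 to 41.6) of the first 500 E2+R5020 sites and 39.8% (35.5 to 44.2) of the first 500 R5020 sites. By score, 68.8% (57.4 to 78.7) of the 80 E2+R5020 sites at 30 steps or more were kept, against 2.98% (2.50 to 3.52) of the 4497 at the lowest score of 7 steps. In the R5020 list, 63.3% (43.9 to 80.1) of the 30 sites at 10 steps or more were kept, against 9.51% (7.60 to 11.7) of the 831 at 3 steps. Gained sites stood at the limit of the list more often than kept ones: 4363 of the 11109 gained sites (39.3%) had the lowest score, against 134 of the 799 kept ones (16.8%).

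**Figure D1:**
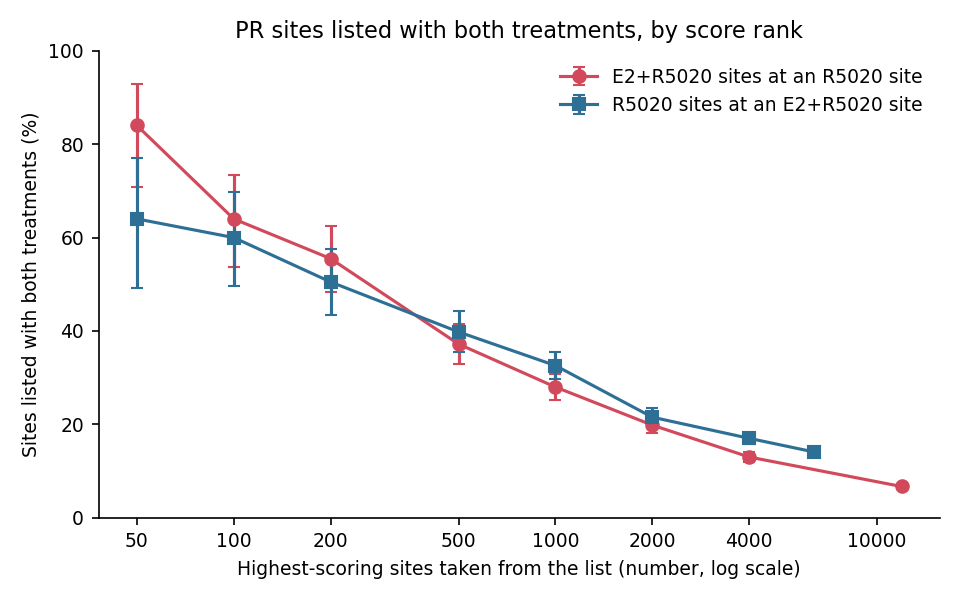
Share of PR sites that overlap a PR site of the other treatment (y axis, %) among the highest-scoring sites of each list (x axis, number of sites, log scale), with exact 95% intervals over sites. It is 84.0% of the first 50 and 6.71% of all E2+R5020 sites, and 64.0% of the first 50 and 14.1% of all R5020 sites.

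Partners of top sites were often ranked high, but most were not among the first 100. Of the 64 kept sites among the first 100 of E2+R5020, 19 had a partner among the first 100 of R5020, and the median partner rank was 360 of 6358. Of the 60 kept sites among the first 100 of R5020, 20 had a partner among the first 100 of E2+R5020, and the median partner rank was 255.5 of 11908. The worst partner ranks were 6186 and 11906, close to the end of each list. Many sites share a score, 3100 of the R5020 sites being at 4 steps, and such ties were ranked by length.

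Kept sites were longer than the others, most of all under E2+R5020. The median was 287 bp for gained sites (quartiles 240 and 375) and 440 bp for kept sites (quartiles 289 and 651) in the E2+R5020 list. In the R5020 list it was 156 bp for kept sites (quartiles 141 and 192) and 148 bp for lost sites (quartiles 135 and 156). Of the 47 E2+R5020 sites over 1000 bp, 33 were kept (70.2%, 55.1 to 82.7), against 162 of the 5312 over 200 and up to 300 bp (3.05%, 2.60 to 3.55). Of the 49 R5020 sites over 300 bp, 35 were kept (71.4%, 56.7 to 83.4), against 324 of the 3278 over 100 and up to 150 bp (9.88%, 8.88 to 10.96). Under E2+R5020 the median site was 282 bp at 7 steps and 809 bp at 30 steps or more. Under R5020 length did not rise steadily with score, with medians of 151 bp at 3 steps, 141 bp at 6 steps, 189 bp at 8 to 9 steps and 148 bp at 10 steps or more. The part of length in sharing was not tested. With every site set to 200 bp around its centre, 5.79% of E2+R5020 and 11.5% of R5020 sites were kept.

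**Figure D2:**
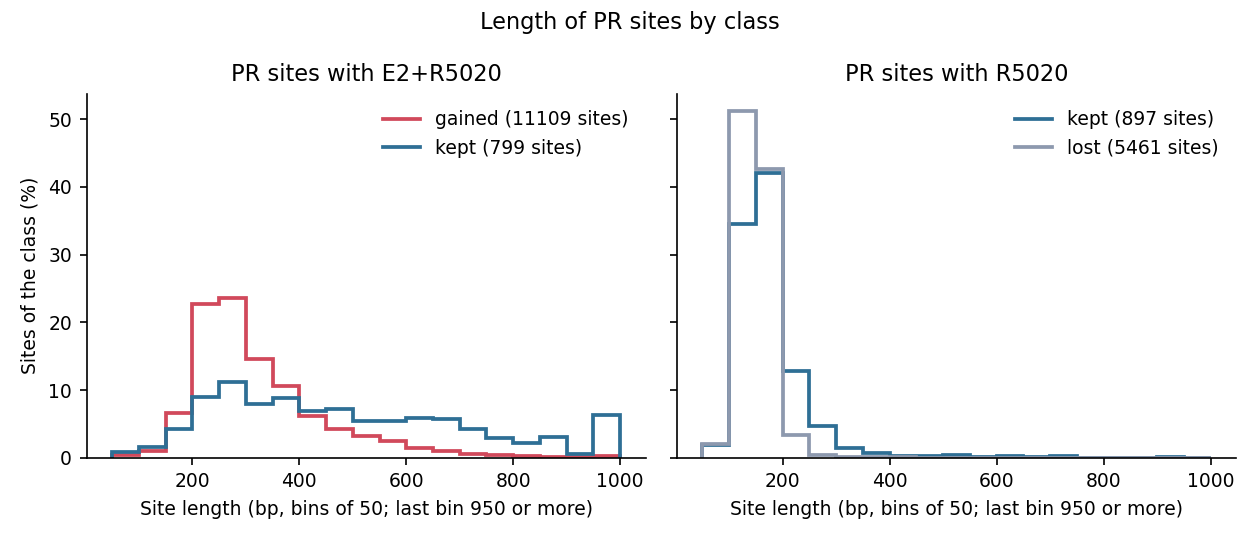
Length of PR sites (x axis, bp, bins of 50) as a share of each class (y axis, %), for the E2+R5020 list (left, gained and kept) and the R5020 list (right, kept and lost). Kept sites under E2+R5020 spread widely around a median of 440 bp and gained sites sit closer to theirs of 287 bp, while the R5020 classes have medians of 156 bp (kept) and 148 bp (lost).

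At a kept place the E2+R5020 site usually enclosed the R5020 site. The 799 and 897 kept sites formed 904 overlapping pairs. In 609 of these (67.4%) the R5020 site lay wholly inside the E2+R5020 site, and in 6 the reverse held. The E2+R5020 site was the longer one in 874 pairs (96.7%), by a median of 2.79 times. Centres lay a median of 102 bp apart (quartiles 40.4 and 173 bp), and within 100 bp in 448 pairs. Most kept E2+R5020 sites, 706, held 1 R5020 site, while 83 held 2, 8 held 3 and 2 held 4. A wide site under both hormones could thus stand where R5020 alone gave several narrow ones, and 7 R5020 sites met 2 E2+R5020 sites.

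Some sites only just missed or made the limit of 1 bp. The overlap was under 50 bp in 73 of the 904 pairs. The smallest, 1 bp, was between chr3:196585654-196585969 under E2+R5020 and chr3:196585494-196585654 under R5020. The closest pair that missed was on chromosome 9, where the gained site chr9:66460197-66460399 began on the base after the lost site chr9:66460066-66460196. Both of these had an ER site of R5020 over them. Within 500 bp of a PR site of the other treatment lay 389 gained sites (3.50%, 3.17 to 3.86) and 367 lost sites (6.72%, 6.07 to 7.42). Counted as kept, they raised the kept share to 9.98% of E2+R5020 and 19.9% of R5020 sites, from 6.71% and 14.1%. The median distance was 39904 bp for gained and 17490 bp for lost sites, in lists of unequal length.

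The leading kept sites were wide, and 4 of the 5 lay at ER sites. The top E2+R5020 site, chr3:127022793-127023743 (951 bp, 93 steps), ranked 1 there, and its R5020 partner chr3:127022822-127023557 (736 bp, 11 steps) ranked 12. It lay at ER sites of E2+R5020 and R5020 and at a reChIP site, and at no ER site of PR-deficient cells. At chr4:6634640-6635707 (1068 bp) the ranks were 3 under E2+R5020 and 4 under R5020, with the R5020 site spanning 948 bp. That place was in 6 of the other 8 lists, among them all 3 ER lists of T47D cells. At chr21:39018467-39019365 the ranks were 2 and 210, and the reChIP list was the only other list with a site. At chr13:111133816-111134471 they were 4 and 25, and at chr6:34430069-34430839 they were 5 and 95. Both of these lay at ER sites of E2+R5020 and R5020 and at a reChIP site.

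Ordered by the R5020 list, other kept sites came first. The first 3, chr17:45216105-45216239 (135 bp, 17 steps), chr2:133020072-133020217 (146 bp, 16 steps) and chr1:143153003-143153102 (100 bp, 16 steps), were narrow. Their E2+R5020 partners measured 142, 395 and 141 bp and ranked 593, 299 and 239 of 11908. Within 500 kb the 3 had 3, 7 and 64 other sites of the R5020 list. None of the 3 lay at an ER site of E2+R5020, while the first and the last lay at an ER site of R5020. The site chr4:6634681-6635628 described above came next. It was followed at rank 7 by chr9:68426049-68426666 (618 bp), which lay at ER sites of all 3 T47D treatments.

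The strongest gained sites were at places where ER was listed both with R5020 alone and with both hormones. The 5 highest-scoring ones all had an ER site of E2+R5020, an ER site of R5020 and a reChIP site. They were chr10:79631781-79632823 (1043 bp, rank 14 of 11908), chr19:1163907-1164773 (867 bp, rank 15), chr8:66934336-66935157 (822 bp, rank 16), chr11:126371968-126372639 (672 bp, rank 19) and chr20:49737520-49738356 (837 bp, rank 37). The nearest R5020 PR site was 443 bp from the chromosome 8 site, 1473 bp from the chromosome 10 site and 67118 bp from the chromosome 20 site. In all, 8 of the first 50 E2+R5020 sites were gained, of which 6 lay at an ER site of E2+R5020, 6 at an ER site of R5020 and 8 at a reChIP site. Of the 42 kept ones, 32, 27 and 36 did.

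The strongest lost sites lay in at most 2 of the other 8 lists, against 3 to 6 for the strongest gained sites. They were also narrower, in a list of shorter sites. They were chrY:58986692-58986775 (84 bp, rank 5 of 6358), chr3:96336406-96336467 (62 bp, rank 6), chr4:49290479-49290856 (378 bp, rank 8), chrX:55209933-55209993 (61 bp, rank 10) and chr5:1328136-1328574 (439 bp, rank 14). The chromosome Y site was in no other list and lay 532 bp from an E2+R5020 PR site. The chromosome 3 site was 400999 bp from the nearest one. Within 500 kb, those on chromosomes Y, 4 and 5 had 30, 29 and 25 other R5020 PR sites. Those on chromosomes 3 and X had 0 and 1. Those on chromosomes 4, X and 5 had an ER site of E2+R5020 although no PR site was listed there under that treatment. Of the 18 lost sites among the first 50 R5020 sites, 8 lay at an ER site of E2+R5020, 11 at an ER site of R5020 and 2 at a reChIP site. Of the 32 kept ones, 13, 25 and 14 did. Whether sites on chromosome Y or beside the long empty stretches described below mark PR binding was not tested. Which of the named sites lie beside such a stretch was not marked, here or above.

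ER sites were then set against the whole classes. Of all E2+R5020 PR sites, 8.07% lay at an ER site of the same treatment, and of all R5020 PR sites 7.66% did. Under E2+R5020 the share was 7.12% (6.65 to 7.61, 791 of 11109) of gained sites and 21.3% (18.5 to 24.3, 170 of 799) of kept sites. Under R5020 it was 30.7% (27.7 to 33.8, 275 of 897) of kept sites and 3.88% (3.39 to 4.43, 212 of 5461) of lost sites. The ER list of the other treatment gave a like order. An ER site of R5020 lay at 8.34% of all E2+R5020 PR sites, at 6.57% (6.12 to 7.05) of gained and at 32.9% (29.7 to 36.3) of kept ones. An ER site of E2+R5020 lay at 4.66% of all R5020 PR sites, at 20.6% (18.0 to 23.4) of kept and at 2.03% (1.67 to 2.44) of lost ones.

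The reChIP list of E2+R5020, meant to hold places that carry ER and PR at once, gave the same order of classes. A reChIP site lay at 9.72% of all E2+R5020 PR sites and at 4.4% of all R5020 PR sites. The share was 8.79% (8.27 to 9.33, 976 sites) of gained, 22.7% (19.8 to 25.7, 181 sites) of kept under E2+R5020, 23.5% (20.8 to 26.4, 211 sites) of kept under R5020 and 1.26% (0.984 to 1.60, 69 sites) of lost sites. An ER site and a reChIP site of E2+R5020 stood together at 433 gained sites (3.90%), 108 kept E2+R5020 sites (13.5%) and 21 lost sites (0.385%), with 4.54% of all E2+R5020 and 2.19% of all R5020 PR sites. At 159 lost sites (2.91%, 2.48 to 3.39) at least 1 of these was listed under both hormones although PR was not. At the other lost sites neither was, so that T47D cells given both hormones had no listed ER, PR or reChIP site there. These shares too depend on the limit set for sharing. With 50% or more of each site required to overlap throughout, an ER site of the same treatment lay at 5.41% of gained, 11.4% of kept E2+R5020 and 1.62% of lost sites, and a reChIP site at 7.04%, 9.14% and 0.534% of them.

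**Figure D3:**
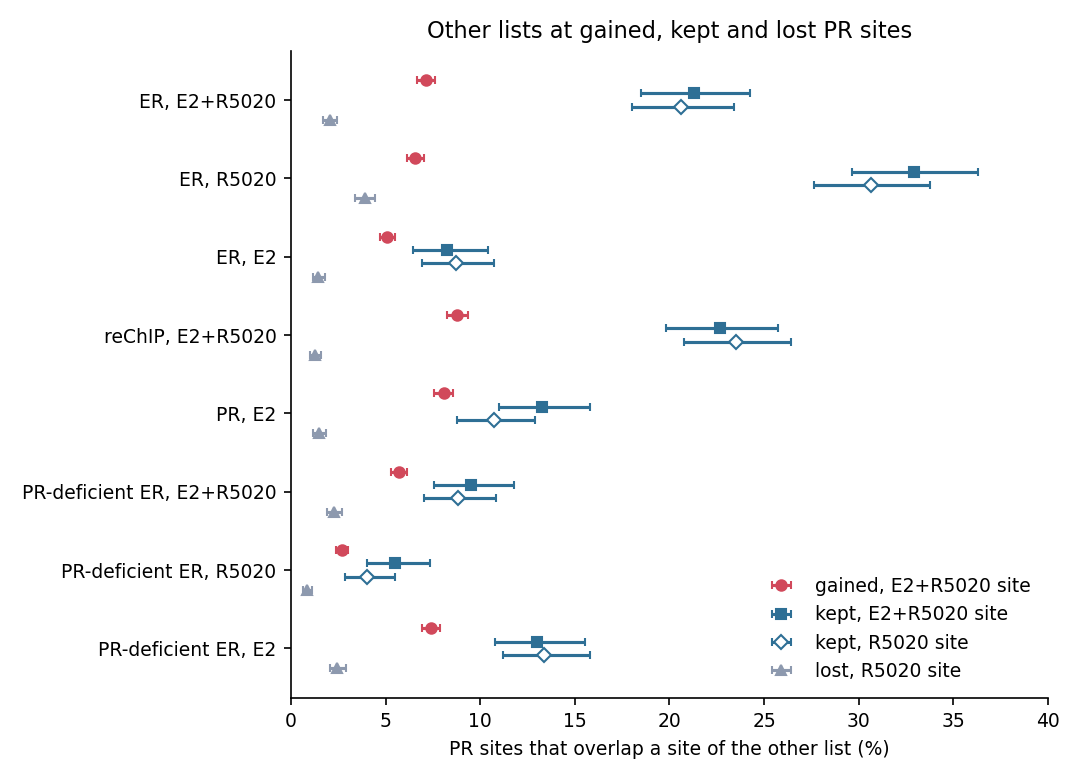
Share of PR sites of each class that overlap a site of each of the other 8 lists (x axis, %; rows, the other list), with exact 95% intervals over sites. Kept sites lie to the right of gained sites and lost sites to the left of both in each row. The widest gap between kept and gained is for ER under R5020, at 32.9% of kept against 6.57% of gained E2+R5020 sites. Gained and lost sites come from lists of unlike site length and were not compared at like length.

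Since kept E2+R5020 sites were longer, gained and kept sites were also compared within 5 bands of length. For an ER site of R5020 the share was higher at kept sites, with intervals apart, in all 5. It was 6.67% (5.15 to 8.47) of gained and 57.4% (43.2 to 70.8) of kept sites up to 200 bp, 4.23% (3.70 to 4.82) and 26.5% (19.9 to 34.0) over 200 and up to 300 bp, and 20.1% (16.6 to 24.0) and 39.3% (33.1 to 45.7) over 600 bp. Of the sites up to 200 bp, 38.9% of kept and 8.06% of gained ones lay on chromosome Y or near the long empty stretches described below. At sites of any length there, an ER site of R5020 lay at 48.7% of kept and 18.7% of gained ones. Elsewhere it lay at 29.0% and 5.83%. The band up to 200 bp was not compared without them. For an ER site of E2+R5020 the intervals overlapped in 4 of the 5 bands. The share was 14.5% (12.9 to 16.2) of gained and 13.4% (9.04 to 18.9) of kept sites over 400 and up to 600 bp, and 36.8% (32.4 to 41.3) and 46.6% (40.2 to 52.99) over 600 bp. The exception was over 200 and up to 300 bp, at 3.38% (2.90 to 3.91) of gained and 8.64% (4.81 to 14.1) of kept sites. For a reChIP site the intervals also overlapped in 4 of the 5 bands, and were apart up to 200 bp, at 2.80% (1.83 to 4.07) of gained and 11.1% (4.19 to 22.6) of kept sites. Over 400 and up to 600 bp the reChIP share was 21.1% (19.2 to 23.1) of gained and 13.9% (9.46 to 19.5) of kept sites.

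Bands of score set the lists apart in the same way for ER of R5020. At the lowest score, 7 steps, an ER site of R5020 lay at 3.94% (3.38 to 4.56) of gained and 23.1% (16.3 to 31.2) of kept E2+R5020 sites, and over 15 steps at 22.98% (18.4 to 28.1) and 45.6% (38.1 to 53.1). An ER site of E2+R5020 lay at 3.05% (2.56 to 3.602) of gained and 8.96% (4.71 to 15.1) of kept sites at 7 steps, with intervals apart, and at 48.9% (43.2 to 54.6) and 55.6% (47.98 to 62.9) over 15 steps, with intervals that overlapped. Over 10 and up to 15 steps the order of these shares turned, at 21.4% (18.9 to 24.0) of gained and 18.02% (12.6 to 24.6) of kept sites, also with overlap. For reChIP the order changed along the list too. At 7 steps a reChIP site lay at 3.71% (3.17 to 4.32) of gained and 5.22% (2.13 to 10.5) of kept sites, and at 8 steps at 4.33% (3.62 to 5.13) and 7.46% (3.64 to 13.3). Over 8 and up to 10 steps it lay at 8.87% (7.77 to 10.1) of gained and 3.35% (1.24 to 7.15) of kept sites, and over 10 and up to 15 steps at 26.4% (23.7 to 29.2) and 16.9% (11.6 to 23.3). Over 15 steps it lay at 63.4% (57.8 to 68.8) of gained and 71.7% (64.5 to 78.1) of kept sites. The share was thus higher at gained sites between 9 and 15 steps, above the list's median of 8 steps, with intervals apart, and higher at kept sites in the other bands, with intervals that overlapped. Kept sites were chosen for a second site under R5020, and the ER and PR libraries of R5020 share a treatment, so the excess for ER of R5020 is not independent of that choice. Whether input libraries entered the calling was not stated in the labels.

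**Figure D4:**
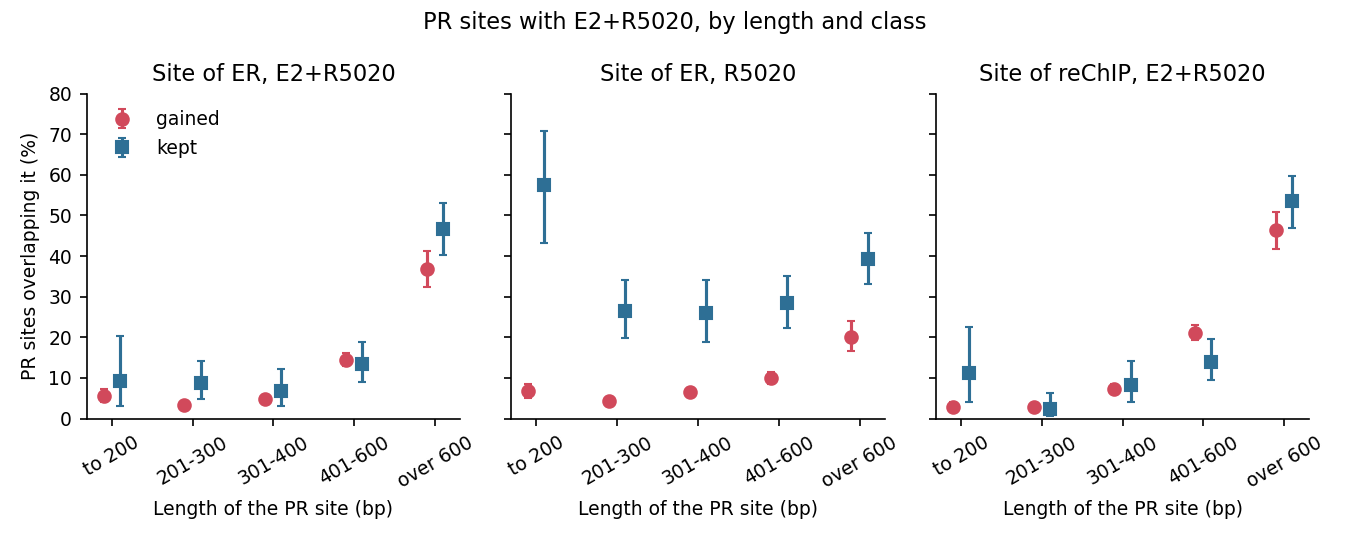
Share of E2+R5020 PR sites that overlap an ER site of E2+R5020 (left), an ER site of R5020 (middle) or a reChIP site (right) (y axis, %), by length of the PR site (x axis, bp) for gained and kept sites, with exact 95% intervals. In the middle panel kept sites lie above gained ones in every band, while intervals overlap in 4 of the 5 bands on the left and on the right.

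In the R5020 list the kept sites exceeded the lost ones within each of 3 bands of length, for all 3 lists compared. An ER site of R5020 lay at 26.2% (21.6 to 31.1) of kept and 3.38% (2.77 to 4.08) of lost sites up to 150 bp, and at 48.4% (41.1 to 55.8) and 11.8% (7.87 to 16.8) over 200 bp. ER of E2+R5020 was listed at 13.4% (9.96 to 17.4) of kept and 1.95% (1.49 to 2.50) of lost sites up to 150 bp, and at 37.4% (30.5 to 44.7) and 8.18% (4.92 to 12.6) over 200 bp. A reChIP site lay at 18.9% (14.9 to 23.4) of kept and 1.24% (0.876 to 1.69) of lost sites up to 150 bp, and at 35.3% (28.5 to 42.5) and 3.18% (1.29 to 6.45) over 200 bp. Kept R5020 sites were chosen for a PR site under both hormones, and the ER and reChIP lists of E2+R5020 come from that treatment, so these differences are not independent of that choice.

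Some gained sites lay at places listed with E2 alone. An ER site of E2 lay at 5.29% of all E2+R5020 PR sites and at 2.45% of all R5020 PR sites. By class, the share was 5.08% (4.68 to 5.50) of gained, 8.26% (6.45 to 10.4) of kept E2+R5020, 8.70% (6.93 to 10.7) of kept R5020 and 1.43% (1.13 to 1.78) of lost sites. The PR list of E2 shares its vehicle library with both lists compared here, so its values are a description. It had a site at 8.41% of all E2+R5020 and 2.77% of all R5020 PR sites. By class it had one at 895 gained sites (8.06%), 106 kept E2+R5020 sites (13.3%), 96 kept R5020 sites (10.7%) and 80 lost sites (1.46%). Counting ER of E2, ER of R5020 and PR of E2 together, 1940 gained sites (17.5%, 16.8 to 18.2) lay at a site of these lists. The same held for 360 kept E2+R5020 sites (45.1%, 41.6 to 48.6) and 19.3% of all E2+R5020 PR sites. PR of R5020 was left out, since every kept and no gained site lies at one by definition. With ER of R5020 left out too, the values were 12.9% (12.3 to 13.5) of gained and 21.2% (18.4 to 24.1) of kept sites. Over all E2+R5020 PR sites the value was then 13.5%. Gained sites make up 93.3% of the E2+R5020 list, so their share is bound to lie close to that of the whole list.

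ER sites of PR-deficient T47D cells gave the same order of classes, with lower shares at kept sites than the T47D ER lists of R5020 and of both hormones. This did not hold against the T47D ER list of E2, with a site at 8.26% of kept E2+R5020 sites. In PR-deficient cells that share was 13.0% with E2, 9.51% with E2+R5020 and 5.51% with R5020. ER of E2+R5020 in PR-deficient cells was listed at 5.95% of all E2+R5020 and 3.18% of all R5020 PR sites. It lay at 5.69% (5.27 to 6.14) of gained, 9.51% (7.57 to 11.8) of kept E2+R5020, 8.81% (7.03 to 10.9) of kept R5020 and 2.25% (1.88 to 2.68) of lost sites. For R5020 in PR-deficient cells the shares over the whole lists were 2.86% and 1.29%, with 2.67% (2.38 to 2.99) of gained, 5.51% (4.03 to 7.32) of kept E2+R5020 and 0.842% (0.617 to 1.12) of lost sites. For E2 in PR-deficient cells they were 7.75% and 3.98%, with 7.37% (6.89 to 7.87) of gained, 13.0% (10.8 to 15.5) of kept E2+R5020 and 2.44% (2.04 to 2.88) of lost sites. At gained and lost sites the shares of E2 in PR-deficient cells, 7.37% and 2.44%, were above those of ER with E2 in T47D cells, 5.08% and 1.43%. They were closer to those of another treatment, ER with both hormones in T47D cells, at 7.12% and 2.03%. ER sites had median lengths of 1076.5 bp (E2) and 1329 bp (E2+R5020) in PR-deficient cells, against 1171 bp (E2) and 209 bp (E2+R5020) in T47D cells. The ER lists of E2 held 7742 sites in PR-deficient and 4014 in T47D cells, so these shares are not of like lists. How far length or number of sites sets the shares was not tested.

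None of the other 8 lists held a site at 4830 of the 5461 lost sites (88.4%, 87.6 to 89.3). The same held for 7928 of the 11109 gained sites (71.4%, 70.5 to 72.2), 315 of the 799 kept E2+R5020 sites (39.4%, 36.0 to 42.9) and 376 of the 897 kept R5020 sites (41.9%, 38.7 to 45.2). Over the whole lists it held for 69.2% of E2+R5020 and 81.9% of R5020 PR sites, so that the 2 lists themselves differ in this share. At the other end, 330 gained (2.97%), 72 kept E2+R5020 (9.01%) and 8 lost sites (0.146%) were in 4 or more of the other lists, against 3.38% of all E2+R5020 and 1.34% of all R5020 PR sites. Length moved with this count: gained sites in none of them had a median of 273 bp and those in 6 of them 595.5 bp. No site of either list was in all 8.

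The most widely listed sites were few. Among kept sites, chr7:157413376-157414332 (957 bp, rank 25) was in 7 other lists, all but PR with E2. Its R5020 partner was 150 bp long and ranked only 1414. The kept sites chr14:69036316-69037334, chr11:129194220-129195116 and chr5:56052639-56053464 followed with 6. Among gained sites, chr9:74397862-74398588 (rank 167) and chr1:202101458-202101950 (rank 1844) were in 7. The chromosome 1 site had 10 steps as a PR site, where the median was 8, and 320 steps as an ER site of E2, where the median was 42. The nearest R5020 PR site was 2297089 bp from the chromosome 9 site and 74683 bp from the chromosome 1 site. Among lost sites, chr12:122186536-122186690 (155 bp, rank 3335) was in 6, and chr17:45599263-45599412 and chr17:79283282-79283420 were in 5. All 3 had the median score of the R5020 list, 4 steps, and lay at an ER site and a reChIP site of both hormones.

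PR sites were spread unevenly over the chromosomes, in much the same way under either treatment. Chromosome 11 held 10.1 sites per Mb under E2+R5020 and 5.96 under R5020, chromosome 3 held 9.30 and 5.15, and chromosome 20 held 8.89 and 5.29. Chromosome 2 held 1.29 and 0.436, chromosome 13 held 0.626 and 0.148, and chromosome X held 0.425 and 0.0515. Chromosomes 3, 8, 10 and 11 together held 41.8% of the E2+R5020 and 45.2% of the R5020 PR sites. The same 4 held 37.5% of the PR sites of E2 and 43.2% of the ER sites of R5020, but 21.2% of the ER sites and 23.1% of the reChIP sites of E2+R5020. Of the ER sites of E2, 843 of 4014 lay there. Without these 4 chromosomes, 6.80% of E2+R5020 and 15.3% of R5020 PR sites were kept.

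**Figure D5:**
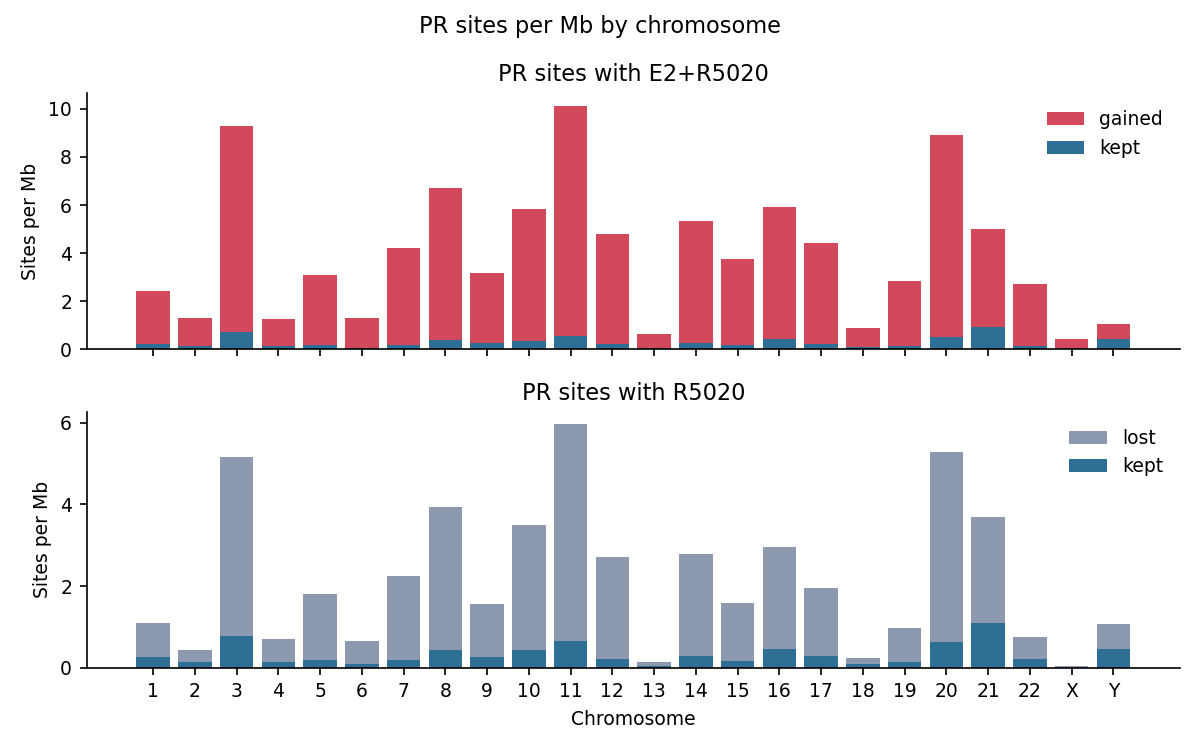
PR sites per Mb of each chromosome (y axis; the end of the last site listed stands for the length), under E2+R5020 (top, gained and kept) and under R5020 (bottom, kept and lost). Chromosome 11 leads both panels, at 10.1 and 5.96 sites per Mb, and chromosome X is lowest, at 0.425 and 0.0515.

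Within chromosomes the sites also clustered, and clustered sites were kept more often. Of the windows of 1 Mb with at least 1 site, 203 of 1880 held 50% of the E2+R5020 sites, and 165 of 1394 held 50% of the R5020 sites. The last 5 Mb of chromosome 3 alone, from position 193000001, held 6.19% of the E2+R5020 and 6.31% of the R5020 sites, of which 84 (11.4%) and 89 (22.2%) were kept. E2+R5020 sites with over 40 others of their list within 500 kb were kept in 11.3% (10.1 to 12.7) of cases, and those with none in 2.93% (1.65 to 4.79). R5020 sites of these kinds were kept in 24.6% (21.7 to 27.6) and 6.94% (4.85 to 9.56). Median length and score changed little with density, at 257 bp for E2+R5020 sites with no other near and 315 bp for those with over 40, and 8 steps for both. Sites of the other list at such places were not counted, and their part in sharing was not tested.

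Kept sites were common beside long stretches without a site in any of the 10 lists. Such stretches, of 3 Mb or more, numbered 26, and sites within 2 Mb of one made up 5.75% (5.33 to 6.20) of gained, 19.8% (17.1 to 22.7) of kept E2+R5020, 20.2% (17.6 to 22.96) of kept R5020 and 7.16% (6.49 to 7.88) of lost sites. Over the whole lists they made up 6.69% of E2+R5020 and 8.997% of R5020 PR sites. On chromosome Y, 25 of 63 E2+R5020 sites (39.7%, 27.6 to 52.8) and 27 of 63 R5020 sites (42.9%, 30.5 to 56.0) were kept. On chromosome 21 the values were 18.8% (14.0 to 24.3) of 240 and 29.8% (23.2 to 37.1) of 178. The settings used to map reads are not given, and whether sites at these places mark PR binding was not tested. Kept E2+R5020 sites beside a stretch or on chromosome Y lay at an ER site of R5020 in 48.7% (40.7 to 56.8), at an ER site of E2+R5020 in 9.49% (5.41 to 15.2) and at a reChIP site in 8.86% (4.93 to 14.4) of cases. Kept sites elsewhere did so in 29.0% (25.5 to 32.7), 24.2% (20.9 to 27.7) and 26.1% (22.7 to 29.6). Without all such sites, 5.77% of E2+R5020 and 12.4% of R5020 PR sites were kept.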

How the data were processed

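Per the labels, each deposited list holds the called sites of 1 library with the vehicle library subtracted (for the reChIP also an IgG control), by a method that the labels do not give. The submitters' processing notes name Bowtie2, MACS and the hg19 build, without versions or settings. Scores are the authors' and their unit is not stated in the labels or files, and the deposited length is end minus start plus 1. All scores of the 10 lists are whole multiples of 1 step per list, within 0.02. Of the 26 samples, each a group of 1 library by its title, 10 had a list and 16 were not used here.

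Overlap, distances and exact Clopper-Pearson intervals used SciPy 1.17.1, pandas 2.3.3 and NumPy 2.4.6 under Python 3.11.15, and matplotlib 3.10.9 drew the plots. All rows entered. The overlap step was checked on simulated lists with known overlaps. Shares over a whole list are given as the background of its classes, and no test was made, since no group has a second library. Named sites were, per class and list, the 5 of highest score, the 5 in most other lists, and the closest to the overlap limit; ties went by length and position, and not all are printed. The end of the last listed site stood for a chromosome's length. The comparison, the lists and these rules were chosen with earlier results of these data known. Motif searches and gene lists planned for a genome and annotation of hg19 were not run, and no sequence is printed.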

Additional observations from a re-analysis of the deposited data

How the results depend on the processing

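No paired analysis was possible because each treatment has a single library, and leaving out a replicate was not possible for the same reason. Shares below are of E2+R5020 and then of R5020 PR sites kept, against 6.71% and 14.1% as reported. They were 1.47% and 2.75% with an overlap of 50% or more of each site, a limit that sites of very unlike length cannot meet. They were 5.79% and 11.5% with centres within 200 bp, and 9.98% and 19.9% with gaps of up to 500 bp allowed. Sites of 200 bp gave the same 5.79% and 11.5%, since such sites overlap only where centres lie within 200 bp. Raising the lowest score by 1 step gave 8.22% and 12.5%, the higher-scoring 50% of each list 7.51% and 15.7%, and lists of equal length 9.97% and 11.4%. Leaving out sites near long empty stretches and chromosome Y gave 5.77% and 12.4%. Merging sites within 500 bp gave 12.9% of R5020 sites, and leaving out chromosomes 3, 8, 10 and 11, a setting chosen after seeing the data, 15.3%. Leaving out chromosome Y alone changed these values by less than their interval.

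Gained sites numbered 6802 with the score raised, 5507 in the higher-scoring 50%, 5724 with equal lengths and 6455 without the 4 chromosomes, against 11109. Lost sites numbered 2679 in the higher-scoring 50% and 2953 without the 4 chromosomes, against 5461. These settings take sites away by construction. With equal lengths lost sites numbered 5631.

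With at least 50% overlap, an ER site of the same treatment lay at 5.41% of gained, 11.4% of kept and 1.62% of lost sites, and a reChIP site at 7.04%, 9.14% and 0.534%. With the score raised, ER lay at 9.86% of gained and 2.998% of lost sites, and reChIP at 11.9% of gained and 27.3% of kept sites. With centres within 200 bp, reChIP lay at 8.22% of gained sites. Away from the stretches and chromosome Y, ER lay at 3.08% of lost and reChIP at 26.1% of kept sites. Kept sites had the highest and lost sites the lowest share under each of these 4 settings, but at 50% overlap the reChIP interval of kept sites (5.32 to 14.4) held the share of gained sites. Centres within 200 bp and sites of 200 bp were counted as separate settings. In all, 31 of the 68 values moved by less than their interval or, for counts, less than 1.5 times, and 37 by more. Apart from the reasons given, the cause was not tested. Read depth is unknown and differs by an unknown amount between lists, so that absence from a list is not absence of PR.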
